A study of Mus musculus with 7 samples.

Results

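The genes described here were the 5 mouse Serpina1 paralogs that encode alpha-1-antitrypsin in liver: Serpina1a (ENSMUSG00000066366), Serpina1b (ENSMUSG00000071178), Serpina1c (ENSMUSG00000079015), Serpina1d (ENSMUSG00000071177) and Serpina1e (ENSMUSG00000072849). They were taken by symbol from a table of 23594 genes, and all 5 were found. Liver RNA was sequenced in bulk from 3 TgL and 4 TgLC mice, all given tamoxifen (TAM) intraperitoneally once, at 32 µg per g of body weight in females and 64 µg per g in males, and the study describes the mice as 8 weeks old at injection. Both groups carried the same knock-in allele (LIF-tg flox/+), the mouse LIF gene inserted with eGFP at Rosa26 under a CAG promoter and kept silent by a STOP cassette until Cre removes it. TgLC mice also carried R26-CreERT2, a TAM-activated Cre expressed throughout the body, whereas TgL mice carried no Cre. The effects of Cre activity and of LIF therefore cannot be told apart in this comparison, nor can LIF made by the liver and LIF made elsewhere.

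Alpha-1-antitrypsin is a secreted serpin, a class of inhibitor that traps its target protease by a change of shape after the protease cuts an exposed loop. It is made mainly by hepatocytes, circulates at high levels and is best known for protecting tissue from neutrophil elastase. Humans have a single SERPINA1 gene and its protein is an acute-phase protein, whereas laboratory mice carry a family of nearly identical copies whose reactive loops differ, so that the copies need not inhibit the same proteases. LIF belongs to the interleukin-6 family of cytokines, which signal through gp130 and STAT3 and drive the acute-phase response of hepatocytes.

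The copies are nearly identical in sequence also just ahead of or around their annotated starts, which is why the promoter stretches are shown. Each stretch is 140 bases of RefSeq sequence (GRCm38.p6), aligned without gaps. Capitals mark each base that differs from Serpina1e, which is printed in lower case throughout as the reference.
Serpina1e: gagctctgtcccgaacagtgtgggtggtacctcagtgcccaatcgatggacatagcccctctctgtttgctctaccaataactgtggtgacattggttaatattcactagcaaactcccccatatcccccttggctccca
Serpina1a: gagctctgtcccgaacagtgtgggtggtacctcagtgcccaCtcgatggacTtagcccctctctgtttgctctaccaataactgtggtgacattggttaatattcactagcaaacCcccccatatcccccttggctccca
Serpina1b: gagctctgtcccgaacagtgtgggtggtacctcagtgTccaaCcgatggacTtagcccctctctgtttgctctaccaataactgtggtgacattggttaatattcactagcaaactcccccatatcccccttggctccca
Serpina1c: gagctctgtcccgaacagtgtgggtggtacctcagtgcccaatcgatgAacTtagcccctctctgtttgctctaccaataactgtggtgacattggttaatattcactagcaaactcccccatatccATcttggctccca
Serpina1d: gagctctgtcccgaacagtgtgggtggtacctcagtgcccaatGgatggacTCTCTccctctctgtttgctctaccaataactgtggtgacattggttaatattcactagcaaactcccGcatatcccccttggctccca

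The stretches lie on the minus strand of chromosome 12, at chr12:103956931-103957070 (Serpina1e), chr12:103863596-103863735 (Serpina1a), chr12:103738171-103738310 (Serpina1b), chr12:103904933-103905072 (Serpina1c) and chr12:103773605-103773744 (Serpina1d). Compared with Serpina1e, Serpina1a and Serpina1b each differed at 3 of the 140 bases, Serpina1c at 4 and Serpina1d at 7. The annotated starts are not aligned in the same way, since the stretch begins 173 bases before the start of Serpina1e and 111 to 122 bases before the starts of the other 4. The 300 bases around each start were searched for motifs on both strands, in these genes and in 32851 mouse promoters. The STAT palindrome TTCNNNGAA was found in none of the 5 (8.30% of all promoters), and neither was its form with a 4-base spacer (6.95%). The C/EBP core TTNNGNAA was found in all but Serpina1c (40.7% of all promoters). These are matches of letters only, in one window per gene. Since the annotated starts are not aligned, the window of Serpina1e does not cover the same part of the shared sequence as the other windows.

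The level of a gene is given as normalized counts, the reads per gene divided by the size factor that the authors computed for each mouse. Reads in genes numbered 9367681 to 11030699 in TgL mice and 11325974 to 12448961 in TgLC mice. Lif, which checks the labels, had 0.894, 1.99 and 0 normalized counts in TgL mice and 10.0005, 12.3, 10.1 and 25.0 in TgLC mice, so the groups did not overlap (p = 0.0571 in an exact two-sided permutation test over mice, which is the minimum for groups of 3 and 4). The labels do not give the sex of each mouse. Xist was at 3521 to 9246 normalized counts in all 7 mice, and 4 Y-linked genes were at 0 to 10.2. The positive acute-phase list of 28 genes took 4.81 ± 0.214% of all reads in the TgL group (SD, n = 3) and 28.4 ± 1.10% in the TgLC group (SD, n = 4), so that any other gene was read against a changed total.

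Compared with TgL livers, 3 of the 5 Serpina1 paralogs rose in TgLC livers (Serpina1e, Serpina1c and Serpina1a), by limma at an adjusted p under 0.05. None of the 5 fell by limma, also at an unadjusted p under 0.05 (0 of 5). These counts depend on the mice and the scaling: 1 of the 5 rose when any one of TgL mice 8267, 8270 and 8530 was left out, 1 rose and 1 (Serpina1d) fell against the library totals, and 2 (Serpina1b and Serpina1d) fell after quantile normalization. Of all 13145 genes tested, 31.2% passed the same rule, 16.2% higher and 15.0% lower in TgLC. Of the same genes, 1166 were called higher and 4404 lower against the library totals, and 2181 higher and 2092 lower after quantile normalization. Without TgL mouse 8267, 8270 or 8530, 1381 of 13144, 1446 of 13146 and 1662 of 13134 genes were called higher. With all mice 2127 were. The rise of Serpina1e was also past a log2 fold change of 1, as were 7.53% of all genes tested in that direction. In normalized counts the TgL and TgLC mice did not overlap for 3 of the 5, beside 41.1% of all genes tested. The median log2 fold change of the 5 was 0.45, and that of all genes tested was 0.0018. In bulk tissue, a change in the number of hepatocytes and a change in RNA per hepatocyte cannot be told apart.

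Serpina1e was the paralog with the largest fold change of the 5. Its level was 27136, 9202 and 6413 normalized counts in TgL mice 8267, 8270 and 8530, and 146523, 126403, 45003 and 104387 in TgLC mice 8264, 8266, YXL3 and YXL4. All 4 TgLC mice lay above all 3 TgL mice, although both groups were widely spread, with a highest-to-lowest ratio of 4.23 in TgL and 3.26 in TgLC mice. The means were 14250 ± 11246 (SD, n = 3) and 105579 ± 43897 (SD, n = 4), a ratio of 7.41. On the log2(normalized count + 1) scale the change was 3.05 (SE 0.53, 95% interval 1.84 to 4.25, limma adjusted p = 0.00282), and it was 3.65 without TgL mouse 8267 (limma adjusted p = 0.00143).

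The same TgL mouse was also the highest of its group in acute-phase genes that are no member of the family. Saa1, a serum amyloid gene, was at 2765 normalized counts in mouse 8267 and at 635 and 359 in the other TgL mice, and Lcn2, which encodes the iron-scavenging lipocalin, was at 597 against 222 and 165. TgLC mouse YXL3, the lowest of its group in Serpina1e, was also the lowest TgLC mouse in Lcn2 (34253) but the highest in Saa1 (320726). The part of these differences between mice in the spread of Serpina1e was not tested.

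**Figure D1:**
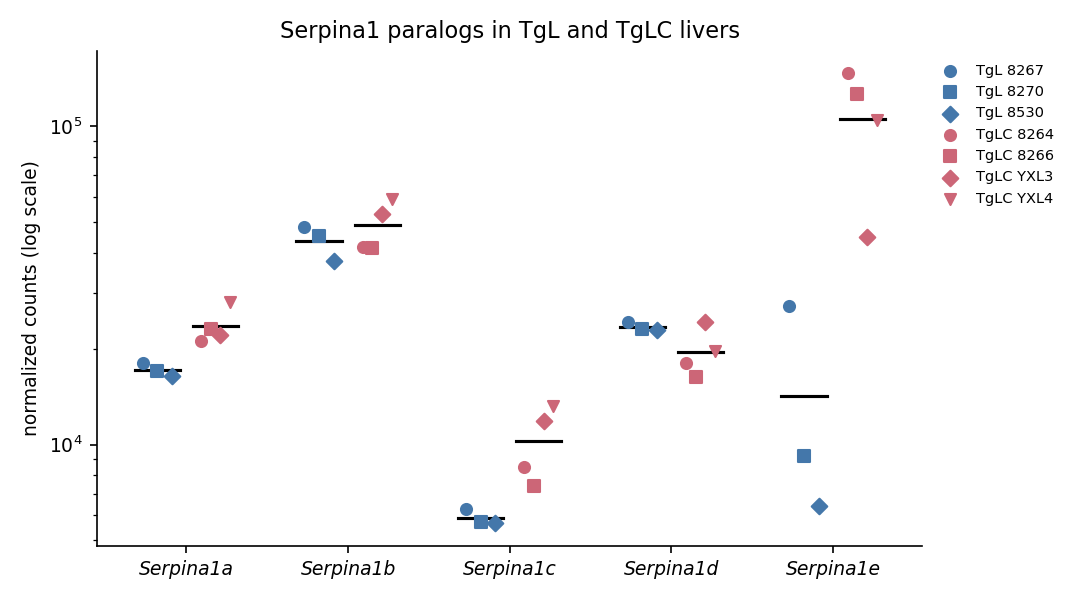
Normalized counts of each Serpina1 paralog (log axis) in the 3 TgL mice (blue) and the 4 TgLC mice (red), with 1 point per mouse and a black line at the group mean. Serpina1e runs from 6413 to 27136 in TgL and from 45003 to 146523 in TgLC mice, while the groups overlap for Serpina1b and Serpina1d.

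Serpina1c, the least abundant copy in all 7 mice, rose by less. It was at 6286, 5724 and 5665 normalized counts in TgL mice and at 8512, 7406, 11820 and 13216 in TgLC mice, and the groups did not overlap. The means were 5892 ± 343 (SD, n = 3) and 10239 ± 2731 (SD, n = 4), with a log2 fold change of 0.76 (SE 0.20, 95% interval 0.30 to 1.22, limma adjusted p = 0.0214). The call rested on each TgL mouse, since without 8267, 8270 or 8530 the limma adjusted p was 0.0554, 0.0759 and 0.0668. It was also lost against the library totals (0.44, limma adjusted p = 0.0819). The exons of Serpina1c share 429 of 1361 bases (31.5%) with those of B430119L08Rik on the opposite strand, and no source used here gives the strand setting of the count. Reads of this pair may therefore not be separable. B430119L08Rik was itself at 47.9 to 128 normalized counts in TgL and 134 to 177 in TgLC mice.

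Serpina1a rose by the smallest amount among the 3. Its level was 17992, 16983 and 16393 normalized counts in TgL mice and 21078, 23111, 22042 and 28025 in TgLC mice, again without overlap. The means were 17123 ± 808 (SD, n = 3) and 23564 ± 3088 (SD, n = 4), and the log2 fold change was 0.45 (SE 0.15, 95% interval 0.12 to 0.79, limma adjusted p = 0.0463). This call was lost without any one of 5 mice (each TgL mouse, and TgLC mice 8266 and YXL4), with limma adjusted p values of 0.0863 to 0.136. Against the library totals, which shift the median of all genes to -0.27 on the log2 scale, its change was 0.14 (limma adjusted p = 0.456). The call was also lost with the label series of the mice as a covariate (0.44, limma adjusted p = 0.0628), in the 4 mice of one series (0.34, limma adjusted p = 0.0572) and with no filter on low values (0.45, limma adjusted p = 0.134). The series was set here from the mouse labels, those that begin with 82 against the rest (8530, YXL3 and YXL4). It is not a batch that the labels name.

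Serpina1b, the most abundant copy in TgL livers, did not pass the test. It was at 48109, 45275 and 37736 normalized counts in TgL mice and at 41759, 41502, 52841 and 58904 in TgLC mice. The groups overlapped, with TgLC mice 8264 and 8266 within the TgL range and YXL3 and YXL4 above it. The log2 fold change was 0.15 (SE 0.20, 95% interval -0.29 to 0.59, limma adjusted p = 0.595), and its sign turned to -0.17 against the library totals (limma adjusted p = 0.460) and to -0.16 in the 4 mice of one label series (limma adjusted p = 0.369). After quantile normalization Serpina1b was called lower (-0.72, limma adjusted p = 0.0272).

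Serpina1d was the copy whose mean was lower in TgLC livers. It was at 24307, 23142 and 22933 normalized counts in TgL mice, which lay close together, and at 18067, 16310, 24204 and 19723 in TgLC mice. In 3 of the 4 TgLC mice it was below every TgL mouse, and YXL3 lay inside the TgL range. The log2 fold change was -0.28 (SE 0.16, 95% interval -0.65 to 0.10, limma adjusted p = 0.233). The fall passed the test against the library totals (-0.59, limma adjusted p = 0.00926) and in the 4 mice of one label series (8267, 8270, 8264 and 8266, -0.47, limma adjusted p = 0.0195). Many other genes were called lower in these fits. They numbered 4404 of 13145 against the library totals, where the median of all genes was -0.27, and 2613 of 13252 in the 4 mice.

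**Figure D2:**
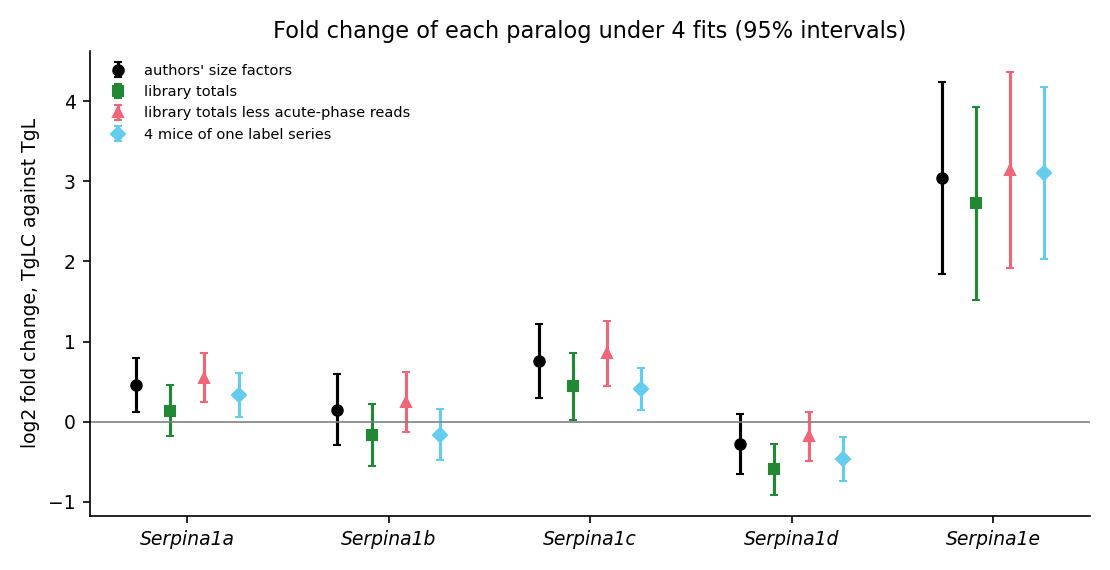
Log2 fold change of each Serpina1 paralog, TgLC against TgL, with 95% intervals, under the authors' size factors, library totals, library totals less acute-phase reads, and the 4 mice of one label series. Serpina1e is the copy whose interval lies above 1 in all 4 fits (3.05, 2.73, 3.14 and 3.11), and Serpina1b changes sign.

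As a share of the library, Serpina1e was also higher in TgLC livers. Serpina1e took 0.275%, 0.0957% and 0.0671% of all reads in TgL mice and 1.23%, 1.09%, 0.357% and 0.864% in TgLC mice. The means were 0.146% and 0.885%, a ratio of 6.06, and the lowest TgLC share was above the highest TgL share (exact two-sided permutation test, p = 0.0571). Without TgL mouse 8267 the ratio was 10.9. Counting error was far smaller than these differences between mice, since the lowest Serpina1e share, 0.0671% in mouse 8530, has an exact (Clopper-Pearson) 95% interval of 0.0655% to 0.0688%, which covers counting error only.

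The shares of the other copies moved less, and not in one direction. Serpina1d took 0.246%, 0.241% and 0.240% of all reads in TgL mice and 0.152%, 0.141%, 0.192% and 0.163% in TgLC mice. These groups did not overlap, with TgLC lower (ratio of means 0.668, two-sided exact permutation test, p = 0.0571). Serpina1c was the reverse, with 0.0593% to 0.0637% in TgL and 0.0639% to 0.109% in TgLC mice (ratio 1.39, two-sided exact permutation test, p = 0.0571), although the nearest mice of the 2 groups were almost level. The shares of Serpina1a (ratio 1.11) and Serpina1b (ratio 0.895) overlapped between groups, each with p = 0.343 by the same exact permutation test. Over the paralogs 15 such tests were run, none of which could go below 0.0571.

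The 5 copies together took 1.26%, 1.04% and 0.933% of all reads in TgL mice and 1.98%, 1.85%, 1.24% and 1.86% in TgLC mice. The means were 1.08 ± 0.164% (SD, n = 3) and 1.73 ± 0.335% (SD, n = 4), a ratio of 1.61, and the groups overlapped because TgLC mouse YXL3 was just below TgL mouse 8267. No test is given for this sum, since the members were chosen with results known. In normalized counts the sum was 104432 ± 17705 (SD, n = 3) and 207709 ± 35605 (SD, n = 4), without overlap and with a ratio of 1.99. Serpina1e made up 88.4% of that rise. The sum of the 4 other copies was 90182 ± 7031 (SD, n = 3) and 102130 ± 15746 (SD, n = 4) normalized counts, a ratio of 1.13, and the groups overlapped. As a share of all reads these 4 copies averaged 0.932% in TgL and 0.846% in TgLC mice, a ratio of 0.908, also with overlap. The direction for the 4 other copies thus depended on the scaling.

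**Figure D3:**
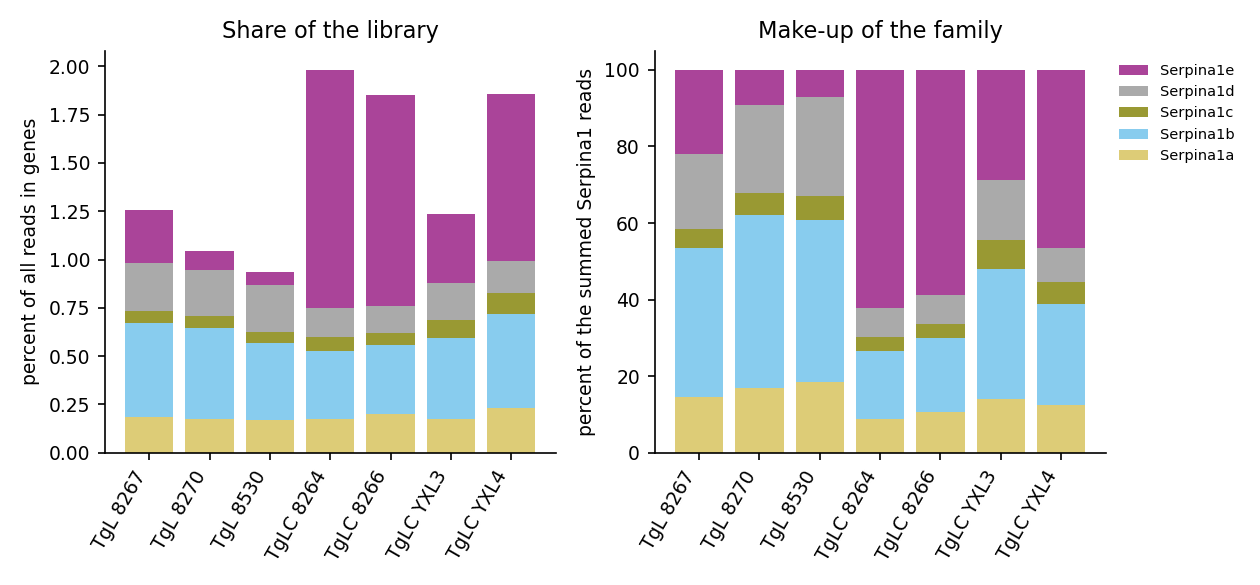
Stacked shares of the 5 Serpina1 paralogs in each mouse, as a percent of all reads in genes (left) and as a percent of the summed Serpina1 reads (right). The Serpina1e band takes 7.19% to 21.9% of the family in TgL mice and 28.9% to 62.1% in TgLC mice.

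The make-up of the family, which does not depend on the scaling of the libraries, differed between the genotypes. Serpina1e was 21.9%, 9.17% and 7.19% of the summed Serpina1 reads in TgL mice and 62.1%, 58.9%, 28.9% and 46.5% in TgLC mice. The means were 12.8 ± 7.99% (SD, n = 3) and 49.1 ± 15.1% (SD, n = 4), without overlap (two-sided exact permutation test, p = 0.0571). The ratio of the means was 3.85, and 5.999 without TgL mouse 8267. A share that rises in one copy lowers the shares of the others, so these values are not independent of each other.

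Serpina1b made up 38.9%, 45.1% and 42.3% of the family in TgL mice and 17.7%, 19.3%, 33.9% and 26.3% in TgLC mice. Serpina1d made up 19.6%, 23.1% and 25.7% in TgL mice and 7.66%, 7.60%, 15.5% and 8.80% in TgLC mice. Serpina1a made up 14.5%, 16.9% and 18.4% in TgL mice and 8.93%, 10.8%, 14.1% and 12.5% in TgLC mice. For each of these 3 copies all TgLC mice lay below all TgL mice (two-sided exact permutation test, p = 0.0571 for each). The share of Serpina1c, 5.08% to 6.36% in TgL and 3.45% to 7.58% in TgLC mice, overlapped between the groups (two-sided exact permutation test, p = 0.629).

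The order of the copies within a mouse changed accordingly. The coding sequences are all 1242 bases long, so the order by normalized counts is also the order per coding length. Serpina1b was the highest copy in all 3 TgL mice and in TgLC mouse YXL3, and Serpina1e was the highest in the 3 other TgLC mice. Serpina1d lay above Serpina1a in all 3 TgL mice, and Serpina1a above Serpina1d in 3 of the 4 TgLC mice, again except YXL3. Ranked per kb of coding length among 15844 genes, Serpina1e stood at places 40, 128 and 186 in TgL mice and at places 11, 14, 36 and 17 in TgLC mice. Serpina1b stood at places 19 to 24 and 25 to 35.

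How well reads can be assigned to single copies bears on all of these values. In GENCODE M21 transcripts the coding sequences of any pair were 96.3% to 98.5% identical, with Serpina1a and Serpina1c the closest pair (19 differing positions) and Serpina1e differing from each other copy at 43 to 46 positions. Of all 100-base windows along the transcript, 85.2% were found in no other gene for Serpina1e, 79.4% for Serpina1b and 70.7% for Serpina1d. Only 41.5% were for Serpina1c and 39.0% for Serpina1a. Windows shared with Serpina1e made up 12.5% to 16.7% of those of the other 4 copies. No source used here gives the treatment of reads that map to several places. The split between copies, and most of all between Serpina1a and Serpina1c, is therefore uncertain.

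The paralogs sit together on chromosome 12 in the order Serpina1b, Serpina1d, Serpina1a, Serpina1c and Serpina1e, inside a larger cluster of Serpina genes. Of the 13 other Serpina genes of this chromosome that were tested, 10 rose and 1 fell by limma, beside 16.2% higher and 15.0% lower of all genes tested. Serpina3c, Serpina3h and Serpina3i had TgL means of 1.86, 9.56 and 4.40 normalized counts. They passed the filter on the mean, at least 10, only through the TgLC mice, so their rises add no support. Serpina10, which encodes the protein Z-dependent inhibitor of clotting factor X, rose by 2.87 (limma adjusted p = 5.13e-06), and Serpina3n, an antichymotrypsin-like gene, rose by 4.87 (limma adjusted p = 3.25e-06), both on the log2 scale. Serpina6, which encodes corticosteroid-binding globulin, fell by 5.26 on the log2 scale (limma adjusted p = 0.00101). Serpina11, the next tested gene beyond Serpina1e, rose by 1.59 (limma adjusted p = 5.49e-05). The change of Serpina1e thus lay within the range of the cluster, whereas those of the other 4 copies were smaller in size than that of any other tested Serpina gene of the chromosome except Serpina12 (-0.62, limma adjusted p = 0.577).

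**Figure D4:**
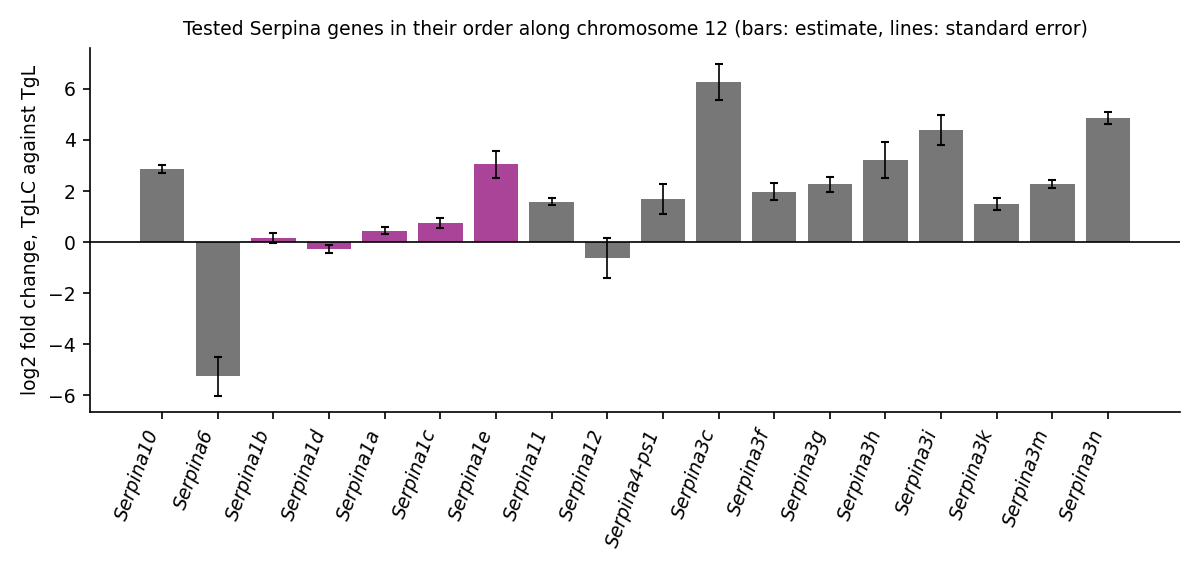
Log2 fold change, TgLC against TgL, of the 18 tested Serpina genes in their order along chromosome 12, with bars for the limma estimate and lines for its standard error. The Serpina1 paralogs (purple) run from -0.28 to 3.05 beside grey neighbours from -5.26 to 6.26.

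Genes linked to alpha-1-antitrypsin by role were then described from lists. Of 3 neutrophil serine proteases that alpha-1-antitrypsin inhibits, Ctsg was not among the genes measured. Prtn3 (proteinase 3) was at 12.5, 4.98 and 12.2 normalized counts in TgL mice and at 422, 568, 1525 and 502 in TgLC mice. Its log2 fold change was 6.002 (SE 0.45, limma adjusted p = 3.09e-05). With a TgL mean of 9.91, Prtn3 passed the filter on the mean, at least 10, only through the TgLC mice, so its rise adds no support. Elane, the neutrophil elastase gene, was too low to be tested (at most 1.02 normalized counts in TgL and 12.1 in TgLC mice). The 10 neutrophil markers summed to 32.8 to 104 normalized counts in TgL and 97.2 to 214 in TgLC mice, with overlap. Of these 10, 4 were tested and 3 of them rose, among them S100a8 (2.61, limma adjusted p = 0.00481). The part of neutrophils in the Prtn3 value was not tested.

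Among 22 genes of other plasma protease inhibitors, 14 rose and 2 fell by limma, with a median log2 fold change of 0.82. Itih3 and Itih4, heavy chains of the inter-alpha-trypsin inhibitor family, rose by 3.38 and 3.23, while Serpinf1, which encodes pigment epithelium-derived factor, fell by 1.56 on the log2 scale. The positive acute-phase list had 25 of its 28 genes higher by limma and a median log2 fold change of 3.29. Serpina1e, at 3.05, was close to that median, and the other 4 copies were below it. Orm2, an orosomucoid gene, rose by 5.77, and Apcs, which encodes serum amyloid P, rose by 5.07. Of 24 genes of abundant plasma proteins, 9 rose and 6 fell by limma, with a median log2 fold change of 0.27, and Hp, the haptoglobin gene, rose by 4.31.

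Among 10 liver and acute-phase transcription factors known for acting on alpha-1-antitrypsin or other liver promoters, 4 rose and 1 fell by limma. Cebpd, a C/EBP factor of the acute phase, rose by 3.03 (limma adjusted p = 6.91e-06) and Stat3 rose by 1.28 (limma adjusted p = 9.88e-05). Foxa1, a hepatic pioneer factor, fell by 1.07 on the log2 scale (limma adjusted p = 0.0416).

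Of 20 genes for folding, export and degradation of secreted proteins in the endoplasmic reticulum, the route that alpha-1-antitrypsin takes, 13 rose by limma, with a median log2 fold change of 0.57. Calr (the chaperone calreticulin) rose by 1.09 and Hspa5 (the chaperone BiP) by 0.97. Lman1, which encodes the cargo receptor that carries alpha-1-antitrypsin to the Golgi, had a log2 fold change of -0.19 (limma adjusted p = 0.191). Its partner Mcfd2, named here after its value was seen, rose by 0.64 (limma adjusted p = 0.0160).

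The liver label was checked against marker lists. The 10 hepatocyte markers summed to 1390570 to 1453824 normalized counts in TgL and 1040577 to 1175069 in TgLC mice, and 2 of the 10 rose and 3 fell by limma. Alb was the largest part of that sum, at 923741 to 992652 in TgL and 550874 to 700732 in TgLC mice, so the sum mainly follows this gene. Alb was not called (log2 fold change -0.61, limma adjusted p = 0.169). Markers of the exocrine pancreas summed to 743 to 1203 in TgL and 42.0 to 56.7 in TgLC mice, and all 11 that were tested fell by limma. Of the 14 such genes measured, 10 were at 0 in all TgLC mice. A gene at 0 in TgLC mice could pass the filter on the mean only through the TgL mice, so its fall adds no support. Kupffer cell markers overlapped between the groups (6371 to 8268 and 5182 to 8486). The summed cholangiocyte markers were 487 to 658 in TgL and 801 to 2056 in TgLC mice, but 1 of the 5 tested rose (Sox9), the sum was mostly Spp1 and Sox9, and the means of Krt7, Krt19, Epcam and Cftr were lower in TgLC mice. The part of these differences in the Serpina1 levels was not tested.

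Likeness of pattern was measured as Pearson's r of log2(normalized count + 1) over the 7 mice, among 1267 genes with a mean of at least 1000, and is given as a description, since all genes share the same libraries and the same split by genotype. The genes most like the summed Serpina1 level were Sel1l (r = 0.980), Retreg1 (0.974), Ctsl (0.971), Mug1 (0.971) and Afdn (0.971). Serpina1e was most like A2m (0.974) and Mug1 (0.973), both of the alpha-2-macroglobulin family of protease inhibitors. A2m had a TgL mean of 170 and a TgLC mean of 31182 normalized counts, with a lowest value of 0. It passed the limit of 1000 on the mean only through the TgLC mice, so its likeness adds no support. The genes most like Serpina1a were Rps3a1 (0.984) and Trf (0.981), and those most like Serpina1c were Prrc2a (0.985) and Ctsa (0.980). Serpina1b was most like Eci2 (0.967) and Rxra (0.9504), and Serpina1d was most like Tcn2 (0.982) and Slc25a23 (0.972).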

How the data were processed

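Poly(A) RNA of liver from 3 TgL and 4 TgLC mice was sequenced in bulk, 1 library per mouse. Per the labels, the authors cleaned reads with fastp, aligned them with HISAT2 (2.0.5), counted them with featureCounts (1.5.0-p3) and scaled the counts with DESeq2 (1.20.0). No source used here gives the build, annotation, strand setting or treatment of multi-mapping reads. The deposited signal is the count of reads per gene divided by a size factor per mouse by the authors. In each mouse 100% of values were whole multiples of the smallest value within 1e-06, which gave the reads in genes (9367681 to 12448961). Symbols matched 22679 of 23594 identifiers, and 915 had none.

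Values were tested as log2(normalized count + 1) by limma 3.58.1 (R 4.3.3) with an intensity trend and genotype as the only term, over 13145 genes with a mean of at least 10. P values were adjusted over all of these by the Benjamini-Hochberg method, with a threshold of 0.05. Shares were compared by a two-sided exact permutation test over mice. On simulated data of 13149 genes, limma recovered 57 of 100 genes changed by 1 and 100 of 100 changed by 2 on the log2 scale, and called 5 unchanged genes. The simulation gave every gene a dispersion of 0.05 and changed far fewer genes than were called in the data. Its rates therefore do not give the power of the real comparison. Libraries of a genotype differed by more than sampling noise (chi-square per degree of freedom 9.03 to 47.4), so none was counted as a repeat. Alternatives were other pseudocounts, no filter, other scalings, a covariate and the omission of mice.

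The paralogs and the gene lists were chosen with earlier results of these data known. The 5 paralogs are described in full. Lists are represented by no more than 2 called genes per direction, those of lowest adjusted p, lists of 6 or fewer may be named in full, and the genes most alike in pattern are the 5 (summed level) or 2 (each paralog) with the highest r. Genes named outside this rule (Alb, Krt7, Krt19, Epcam, Cftr, Spp1, Saa1, Lcn2, Serpina3c, Serpina3h, Serpina3i, Serpina11, Serpina12, Lman1, Mcfd2, B430119L08Rik, Gm8893 and the sex-linked genes) were chosen after their values were seen or as background to a paralog. Sequences and promoter windows are from RefSeq (GRCm38.p6), with all 5 paralogs matched, and coding lengths and identities are from GENCODE M21, which may not be the annotation of the authors. A gene is not reported here.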

Additional observations from a re-analysis of the deposited data

Results flagged for a closer look

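Within the TgLC group, the share of Serpina1d among the summed Serpina1 reads was 15.5% in mouse YXL3, far above 7.66%, 7.60% and 8.80% in the other 3 TgLC mice. Its gap to the nearest mouse, divided by the range of the group, exceeded Dixon's 95% critical value for 4 samples. Chance passes this limit in about 1 in 20 groups. The rule was applied to each paralog as normalized counts, share of all reads and share of the family, and also to their sum. This was the only value flagged, and 1 such value among that many sets can arise by chance. In the same mouse Serpina1e had the lowest share of the TgLC group, 28.9%.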

How the results depend on the processing

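Serpina1e was called by limma under every alternative fit except in the 3 mice outside the label series (8530, YXL3 and YXL4; 3.42, adjusted p = 0.0550). Leaving out each mouse in turn gave log2 fold changes of 2.61 to 3.65 for Serpina1e, 0.62 to 0.90 for Serpina1c, 0.37 to 0.50 for Serpina1a, 0.05 to 0.22 for Serpina1b and -0.38 to -0.19 for Serpina1d, and 1 to 3 paralogs higher by limma, with 1 when any TgL mouse was left out. Against library totals, Serpina1a was 0.14, Serpina1c 0.44 (adjusted p = 0.0819), Serpina1b -0.17 and Serpina1d -0.59, with 1 paralog higher and 1 lower by limma. In that fit 1166 of all 13145 genes were higher and 4404 lower by limma. In the 4 mice of one label series, Serpina1a was 0.34, Serpina1b -0.16 and Serpina1d -0.47, with 1 lower. After quantile normalization, Serpina1a was 0.20, Serpina1b -0.72 (adjusted p = 0.0272) and Serpina1d -0.63, with 2 lower by limma. Serpina1a also lost its call with no filter on low values (0.45, adjusted p = 0.134), with the label series as a covariate (0.44) and in the 3 mice outside the series (0.60). In those 3 mice Serpina1c was 1.14 (adjusted p = 0.0699) and 0 paralogs were higher. The causes of these differences between fits were not tested. The ratio of the summed share was 2.14 when acute-phase reads were taken out of the total, and that of Serpina1b turned from 0.895 to 1.19 in that setting and to 1.12 in normalized counts. Omitting mice gave ratios of 1.51 to 1.76 for the sum. Quantile normalization, limma without the trend and the 3 mice outside the series were chosen after seeing the data. The planned edgeR, DESeq2 and limma-voom alternatives on reads were not run. Division by coding length left the shares of the family as they were, since all 5 lengths are equal. No paired analysis was possible because the labels give no replicate numbers shared between the genotypes. With 3 mice against 4, the exact tests cannot pass 0.05.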

Other observations

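Gm8893, which lies between Serpina1d and Serpina1a, was read at 1334, 1035 and 1112 normalized counts in TgL mice 8267, 8270 and 8530 and at 1908, 1714, 515 and 815 in TgLC mice 8264, 8266, YXL3 and YXL4. Among TgL mice, 8530, outside the label series, lay between 8267 and 8270, which are in it. The TgLC mice lay on both sides of the TgL mice, with 8264 and 8266 above and YXL3 and YXL4 below. For the TgLC mice this is the split of the label series. Serpina1b showed the opposite arrangement, with YXL3 and YXL4 the higher TgLC mice.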
